A study of Saccharomyces cerevisiae with 24 samples.

Results

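The large subunit of the cytosolic ribosome of budding yeast carries many proteins, named Rpl, and most of them are encoded by a pair of near-identical genes, an A copy and a B copy. The genes described here are 59 of the 6369 rows of the deposited count table. They were chosen by systematic name, but with earlier results of these data known. The set is all RPL genes from RPL1 to RPL43 apart from RPL7, RPL8, RPL9, RPL12, RPL18, RPL22, RPL29, RPL38, RPL39 and RPL41. They form 26 pairs, such as RPL1A (YPL220W) and RPL1B (YGL135W), and 7 single-copy genes, RPL3 (YOR063W), RPL5 (YPL131W), RPL10 (YLR075W), RPL25 (YOL127W), RPL28 (YGL103W), RPL30 (YGL030W) and RPL32 (YBL092W). The low-count filter kept 58 of the 59 among 5380 tested genes. The one it removed, RPL43A (YPR043W), had 0 to 8 counts per library, and 2 that it kept were sparse, with 2 to 112 counts per library for RPL33A (YPL143W) and 3 to 79 for RPL36B (YPL249C-A).

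The libraries came from Saccharomyces cerevisiae strains lacking RPL22A (∆RPL22A) or RPL22B (∆RPL22B), the paired genes of the large-subunit protein Rpl22, and from a wild-type strain (WT). All cells were in log phase at an OD of 0.6 to 0.8 and received cycloheximide, which holds ribosomes on mRNA. From each strain, polyA RNA was sequenced as input and as the monosome, low polysome and high polysome fractions of a sucrose gradient, with 2 libraries for each of the 12 strain and pool groups. The series design calls these biological duplicates. Pools are named here by the sample titles, whose descriptions tie each sample to its column of counts, and the columns themselves call the monosome libraries low and the low polysome libraries med. Oxidative stress appears in the title of the series only, and no label gives such a treatment.

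Ribosomal protein genes are among the most transcribed genes of growing yeast, under the shared control of Rap1, Fhl1, Ifh1 and Sfp1, and many of the few introns of this genome lie in them. Their open reading frames are short, so that each mRNA can carry only a limited number of ribosomes, and the place of an mRNA on a sucrose gradient depends on how many it carries. The proteins are assembled onto ribosomal RNA in the nucleolus and nucleus, and copies that are not assembled are degraded. A change in the share of an mRNA in a pool was measured here, not ribosomes per mRNA or protein.

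Because many results concern A and B copies, the bases that tell them apart are shown for the most alike pair with a strain difference and for the pair with the largest rise of a member in a fraction. RPL1A lies on chromosome XVI at 135790 to 136443 (plus strand) and RPL1B on chromosome VII at 254641 to 255294 (plus strand), neither with an intron. Their coding sequences differ at 4 of 654 bases (99.39% identity), and the longest run of identical bases is 315. All 4 are shown here in 3 windows, 5′ to 3′ from the RefSeq R64 genome, the assembly that UCSC names sacCer3, with the differing bases in capitals.
RPL1A, chrXVI:135790-135819, plus strand: atgtcCaagatcacTtcttctcaagtcaga
RPL1B, chrVII:254641-254670, plus strand: atgtcTaagatcacCtcttctcaagtcaga
RPL1A, chrXVI:135945-135975, plus strand: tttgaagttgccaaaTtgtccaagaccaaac
RPL1B, chrVII:254796-254826, plus strand: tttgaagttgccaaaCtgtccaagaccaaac
RPL1A, chrXVI:136113-136143, plus strand: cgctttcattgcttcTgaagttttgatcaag
RPL1B, chrVII:254964-254994, plus strand: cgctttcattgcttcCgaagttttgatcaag
RPL23A (YBL087C, chromosome II, 59822 to 60739, minus strand) and RPL23B (YER117W, chromosome V, 396769 to 397653, plus strand) differ at 26 of 414 coding bases (93.72% identity). The exon stretch with the most differing bases is shown, with those bases in capitals.
RPL23A, chrII:60076-60135, minus strand: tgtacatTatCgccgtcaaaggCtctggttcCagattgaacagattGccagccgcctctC
RPL23B, chrV:397340-397399, plus strand: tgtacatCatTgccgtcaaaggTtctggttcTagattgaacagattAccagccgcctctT
The labels and processing notes do not say how a read that matches both copies was assigned. The split of counts between copies is therefore uncertain for RPL1, for RPL35 (3 of 363 bases differ), for RPL4 (12 of 1089) and for RPL42 (6 of 321). More bases differ in the other 22 pairs, down to 86.5% identity for RPL16. Long identical runs occur there too, such as 326 bases in RPL11, 188 in RPL2 and 147 in RPL14. The split is uncertain over those stretches as well.

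Total counts per library were 2435632 to 10947937, of which 62.5% to 97.1% fell on 7 rows of the ribosomal DNA, most in monosome libraries (83.4% to 97.1%), leaving 314212 to 1950344 counts for all other genes. Of the ribosomal DNA counts, the row YLR154W-E held 63.9% to 96.9% in monosome and 47.0% to 82.9% in high polysome libraries. In input and low polysome libraries it held 6.02% to 9.53% and 5.96% to 20.4%. The make-up of the libraries thus differed between pools in more than the place on the gradient. The row of RPL22B held 6354 counts over the 8 ∆RPL22A libraries, 0 over the 8 ∆RPL22B libraries and 1329 over the 8 WT libraries. The row of RPL22A held 3, 40 and 25 counts in the same order of strains, the fewest in ∆RPL22A. The strains also differed at mating type and marker genes: MF(ALPHA)1 had 27891, 16785 and 11 counts and LYS2 had 2, 0 and 955 counts in ∆RPL22A, ∆RPL22B and WT libraries. A difference between a deletion strain and WT therefore cannot be told apart from one of strain background. The 2 deletion strains were alike in which of these markers they expressed. HIS3, however, had 2447, 784 and 670 counts in ∆RPL22A, ∆RPL22B and WT libraries, and other background differences between the deletion strains were not tested. Every library correlated more with its duplicate than with any library of another pool (r = 0.930 to 0.986 over 3293 genes, on log2 CPM, the counts relative to the library's scaled total), but 4, picked in an earlier look at these data, lay close to another pool. ∆RPL22A input replicate 1 and ∆RPL22A low polysome replicate 2 had r = 0.941 with each other. ∆RPL22B low polysome replicate 1 had r = 0.921 with ∆RPL22A input replicate 1, and WT high polysome replicate 2 had r = 0.920 with WT input replicate 2. ∆RPL22A low polysome replicate 1 and monosome replicate 2, at r = 0.929, were as close and were kept. Several counts that rest on the 4 libraries are given with and without them. Without them 1 library is left in each of their 4 groups, so that low polysomes over input in ∆RPL22A become 1 library against 1. They were picked for lying close to another pool, so leaving them out can widen the differences between pools.

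The 59 genes together took 10.3% to 14.7% of the counts outside the ribosomal DNA in input, 18.6% to 23.1% in monosomes, 19.3% to 25.0% in low polysomes and 11.95% to 15.8% in high polysomes. In input the share was 13.8% ± 1.32 in ∆RPL22A, 10.4% ± 0.118 in ∆RPL22B and 11.5% ± 0.00160 in WT (SD, n = 2 each). In monosomes it was 22.8% ± 0.432, 19.5% ± 0.0738 and 19.9% ± 1.78 in the same strains. In low polysomes it was 21.9% ± 3.26, 22.2% ± 4.01 and 23.8% ± 1.002, and in high polysomes 12.5% ± 0.806, 14.9% ± 0.684 and 14.3% ± 2.09. In each strain the monosome and low polysome libraries lay above all input libraries, and the input libraries of ∆RPL22A lay above those of both other strains. The values are shares, so that more mRNA of these genes and less of all others cannot be told apart.

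**Figure D1:**
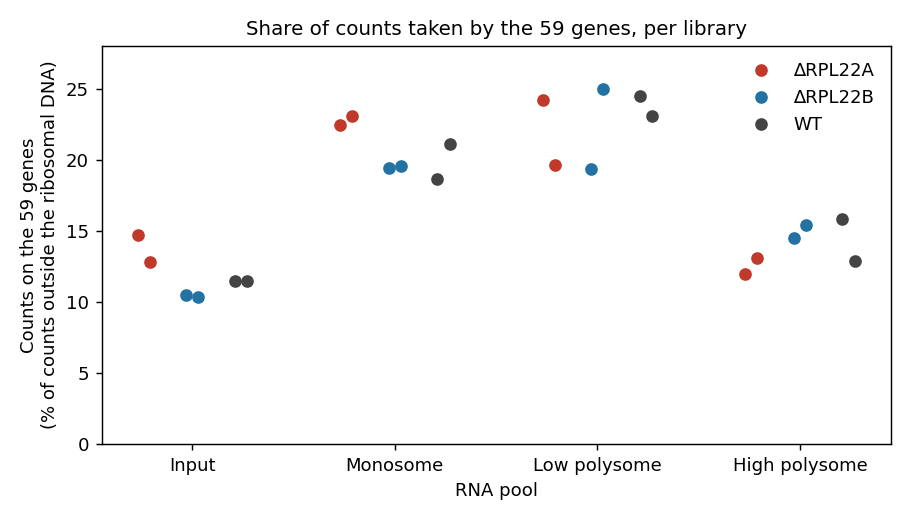
Counts on the 59 genes as a percentage of all counts outside the ribosomal DNA (vertical axis), for each of the 24 libraries (points), by RNA pool (horizontal axis) and strain (colours). Monosome and low polysome libraries sit between 18.6% and 25.0%, all above the input and high polysome libraries, which sit between 10.3% and 15.8%.

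Within WT input the genes spanned a wide range of levels when CPM (scaled by the TMM method) were divided by coding length. The highest were RPL42B (YHR141C), 781 ± 125 CPM per kb, whose protein lies near the exit site for tRNA, and RPL32, 633 ± 8.97 CPM per kb (SD, n = 2 each). RPL15A (YLR029C) at 613 ± 32.99, RPL25 at 556 ± 10.01 and RPL3 at 554 ± 40.99 CPM per kb followed. RPL32 and RPL15A were not separated beyond their spread, nor were RPL25 and RPL3. The lowest were RPL28 at 81.3 ± 41.5, RPL15B (YMR121C) at 45.0 ± 18.5, RPL36B at 5.35 ± 1.89, RPL33A at 4.22 ± 2.87 and RPL43A at 1.32 ± 0.330 CPM per kb. The last 3 are B or A copies whose partners RPL36A (YMR194W), RPL33B (YOR234C) and RPL43B (YJR094W-A) took nearly all counts of their pair. RPL28, by contrast, is the only gene for its protein, and mutations in it give resistance to cycloheximide. Whether the rows of RPL36B, RPL33A and RPL43A are near empty through low mRNA levels or through the counting of reads was not tested. The row of RPL22A was near empty in WT too, with 25 counts over all WT libraries against 1329 for RPL22B.

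Between strains, no member was called in input RNA by the edgeR quasi-likelihood test at an adjusted p of 0.05 when all groups were fitted together, but this count depended on the fit. With only the compared groups fitted, 24 members were called higher in ∆RPL22A than in ∆RPL22B, 6 higher in ∆RPL22A than in WT and 4 lower in ∆RPL22B than in WT. Unless another setting is named, the values that follow are from the fit of all groups, as are the shares of all genes. No share of all genes is given for counts under other settings, here or below. Those counts therefore cannot be read as particular to the members. In ∆RPL22A against WT 0 of 58 were called (4.65% of all 5380 genes were), 5 had an unadjusted p under 0.05 (20.3% of all genes), and DESeq2 called 1. The values lay mostly on one side: 55 of 58 were above 0 (48.6% of all genes), with a median log2 fold change of 0.44, the median of all genes being -0.02. In ∆RPL22B against WT 0 were called (0.335% of all genes), 0 had an unadjusted p under 0.05 (1.47%), DESeq2 called 0, and 56 of 58 lay below 0 (49.4%), with a median of -0.20. In ∆RPL22A against ∆RPL22B 0 were called (5.26%), 16 had an unadjusted p under 0.05 (23.0%), DESeq2 called 8, and 55 of 58 lay above 0 (48.2%), with a median of 0.68. The 3 comparisons share libraries, so they are not independent. Small-subunit protein genes had input medians of 0.33, -0.20 and 0.55 in the same order of comparisons, so the direction was shared with them. Large-subunit protein genes outside the set, RPL22B among them, had 0.30, -0.22 and 0.51. Of the 15 of these that were tested, 1 was called higher and 3 lower in ∆RPL22A against WT. In ∆RPL22B against WT 0 were higher and 1 lower, and in ∆RPL22A against ∆RPL22B 1 was higher and 2 lower. The lack of member calls in this fit therefore does not hold for every large-subunit gene. Without the 4 libraries close to another pool, 2 members were called in ∆RPL22A against WT with a median of 0.19, and 7 in ∆RPL22A against ∆RPL22B with a median of 0.44.

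The members with the largest input differences were not called either. RPL37B (YDR500C), which encodes a zinc-binding protein, had 297 and 189 CPM in ∆RPL22A, 114 and 98.6 in ∆RPL22B and 111 and 102 in WT. Both ∆RPL22A libraries lay above the other 4, but the log2 fold change of 1.19 ± 0.40 over WT had an adjusted p of 0.0870 in edgeR's test. RPL42B had 488 and 413 CPM in ∆RPL22A against 164 and 195 in ∆RPL22B, a log2 fold change of 1.33 ± 0.48 (adjusted p = 0.0919). RPL28 had 34.4 and 75.4 CPM in ∆RPL22A, 24.8 and 19.2 in ∆RPL22B and 23.4 and 49.8 in WT, so that the duplicates of 2 strains spanned more than 2-fold. Its log2 fold change was 1.32 ± 0.51 in ∆RPL22A over ∆RPL22B (adjusted p = 0.113) and -0.73 ± 0.51 in ∆RPL22B over WT (adjusted p = 0.999). RPL34B (YIL052C) at -0.53 ± 0.39 and RPL15B at -0.52 ± 0.45 were the next largest differences of ∆RPL22B from WT (adjusted p = 0.999 and 0.999). The sparse rows RPL33A (1.89 ± 0.80 over WT and 2.17 ± 0.78 over ∆RPL22B, adjusted p = 0.180 and 0.0901) and RPL36B (1.18 ± 0.54 over WT, adjusted p = 0.215) had larger or similar values on few counts.

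**Figure D2:**
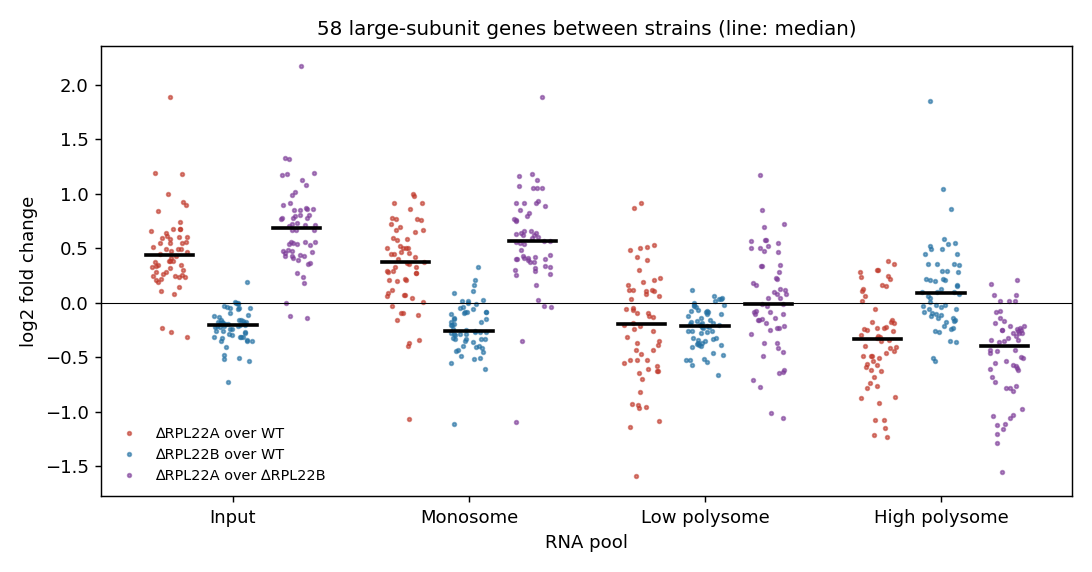
Log2 fold change between strains (vertical axis) of the 58 tested genes (points) in each RNA pool (horizontal axis), for the 3 strain comparisons (colours), with the median of each as a black line. The medians of ∆RPL22A over WT are 0.44 in input, 0.37 in monosomes, -0.20 in low polysomes and -0.33 in high polysomes, while those of ∆RPL22B over WT stay between -0.26 and 0.09.

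In the fractions 4 member calls were made over 9 strain comparisons. RPL17A (YKL180W), a protein that lines the exit tunnel, rose in monosomes of ∆RPL22A, with 382 and 337 CPM against 202 and 126 CPM in ∆RPL22B. The groups did not overlap, and the log2 fold change was 1.13 ± 0.32 (edgeR adjusted p = 0.0418), the 1 call among 58 members (3.10% of all genes). In low polysomes of ∆RPL22A against WT 2 members fell (5.39% of all genes were called). RPL30, which binds its own transcript and blocks its splicing, had 479 and 201 CPM in ∆RPL22A against 1189 and 851 CPM in WT (-1.59 ± 0.45, adjusted p = 0.0303). RPL34A (YER056C-A) had 340.0 and 353 CPM in ∆RPL22A against 797 and 732 CPM in WT (-1.14 ± 0.35), with an adjusted p of 0.049996 at the limit itself. In both, each ∆RPL22A library lay below each WT library. In low polysomes of ∆RPL22A against ∆RPL22B RPL4A (YBR031W), which also reaches into the tunnel, rose, with 971 and 750.4 CPM in ∆RPL22A against 305 and 460.1 CPM in ∆RPL22B (1.17 ± 0.32, adjusted p = 0.0226), the 1 call among 58 (7.19%).

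Each of these 4 calls was lost when 1 library was left out. In monosomes of ∆RPL22A against ∆RPL22B 0 members were called without any 1 of the 4 libraries. In low polysomes of ∆RPL22A against WT 0 were called without ∆RPL22A replicate 2 or without either WT replicate, and 4 without ∆RPL22A replicate 1. In low polysomes of ∆RPL22A against ∆RPL22B 0 were called without ∆RPL22A replicate 1, 7 without ∆RPL22B replicate 1 (6 of them lower) and 8 without ∆RPL22B replicate 2 (all higher). Without the 4 libraries close to another pool, 4 members were higher and 4 lower in low polysomes of ∆RPL22A against WT, and the median log2 fold change turned to 0.16. Against ∆RPL22B, 3 were then higher and 5 lower. The other 6 comparisons called 0 members. With only the compared groups fitted, 14 members were higher and 1 lower in monosomes of ∆RPL22A against ∆RPL22B, and 14 were lower in high polysomes. In monosomes of ∆RPL22A against WT (5.48% of all genes called) 7 members had an unadjusted p under 0.05 and DESeq2 called 1. In high polysomes of ∆RPL22A against WT (3.29%) all 11 members with an unadjusted p under 0.05 were lower, DESeq2 called 4, and 12 members were called, all lower, without the 4 libraries. RPL1B had the smallest adjusted p there, 0.0609, with 75.0 and 106 CPM in ∆RPL22A against 241 and 183 CPM in WT. In high polysomes of ∆RPL22A against ∆RPL22B (5.37%) 8 members had an unadjusted p under 0.05 and DESeq2 called 2. The comparisons of ∆RPL22B with WT called 0.353% of all genes in monosomes, 0.353% in low polysomes and 0.316% in high polysomes, and 0, 0 and 1 members had an unadjusted p under 0.05, while DESeq2 called 0 in each. The percentages for these fractions are of genes called at the adjusted p. No share of all genes is given at the unadjusted p in the fractions, so the unadjusted counts there are read neither as an excess nor as a lack. The input shares of 20.3% for ∆RPL22A against WT and 23.0% against ∆RPL22B are of other libraries and cannot stand in for it. Without ∆RPL22B replicate 2, 9 members were called lower in low polysomes of ∆RPL22B against WT.

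Along the gradient the members moved far more than between strains. In low polysomes relative to input, 52 of 58 rose in ∆RPL22A, 54 in ∆RPL22B and 54 in WT, against 17.2%, 20.7% and 20.8% of all genes, and 0 fell in any strain (8.42%, 12.4% and 13.6% of all genes). The median log2 fold changes were 1.56, 2.51 and 2.40 in ∆RPL22A, ∆RPL22B and WT, and 50 members rose in all 3 strains. The same comparison raised 51, 55 and 53 of the 56 tested small-subunit protein genes, with medians of 1.56, 2.45 and 2.55, so the rise was shared with the other ribosomal subunit. RPL25, at the mouth of the exit tunnel where signal recognition particle docks, had 2020.1 and 695 CPM in low polysomes of ∆RPL22A, 659 and 2577 in ∆RPL22B and 2085 and 1585 in WT. Its input libraries had 416 and 255, 212 and 209.8 and 242 and 236 CPM in the same strains. Every low polysome library exceeded every input library, by a log2 fold change of 2.02 ± 0.48 in ∆RPL22A, 2.94 ± 0.50 in ∆RPL22B and 2.94 ± 0.50 in WT (adjusted p = 0.00339, 7.3e-05 and 5.85e-05). The low polysome duplicates of ∆RPL22A and of ∆RPL22B differed more than 2-fold, and the lower one in each was a library close to another pool. The count for ∆RPL22A rests on a pair of libraries, input replicate 2 and low polysome replicate 1, and few members were called when either was left out. Without the 4 libraries that comparison is of this 1 library against 1, with no duplicate in either group. In ∆RPL22B 1 low polysome library is then left. A count without the 4 libraries therefore cannot back the main count.

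The 4 largest rises in low polysomes of ∆RPL22A were those of RPL23B (2.35 ± 0.58), RPL14A (YKL006W, 2.19 ± 0.46), RPL10 (2.12 ± 0.42) and RPL23A (2.09 ± 0.49). In ∆RPL22B they were those of RPL28 (3.40 ± 0.54), the sparse RPL33A (3.25 ± 0.76), RPL42B (3.09 ± 0.51) and RPL27A (YHR010W, 3.04 ± 0.52). In WT they were those of RPL33A (3.54 ± 0.80), RPL42B (3.13 ± 0.51), RPL40B (YKR094C, 3.08 ± 0.49) and RPL40A (YIL148W, 3.04 ± 0.51). RPL3, which reaches to the peptidyl transferase centre, and RPL5, which carries 5S ribosomal RNA, rose in no strain. RPL3 had 640.5 and 595 CPM in low polysomes of ∆RPL22A, 389.8 and 372 in ∆RPL22B and 522 and 563 in WT, against 613 and 458, 522 and 553 and 679 and 612 CPM in their inputs. The log2 fold changes were 0.21 ± 0.31, -0.50 ± 0.31 and -0.25 ± 0.31, and those of RPL5 0.53 ± 0.34, -0.14 ± 0.34 and -0.20 ± 0.34. In WT the 4 members not called were RPL3, RPL5, RPL4A and RPL4B (YDR012W), the 4 longest reading frames of the set.

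**Figure D3:**
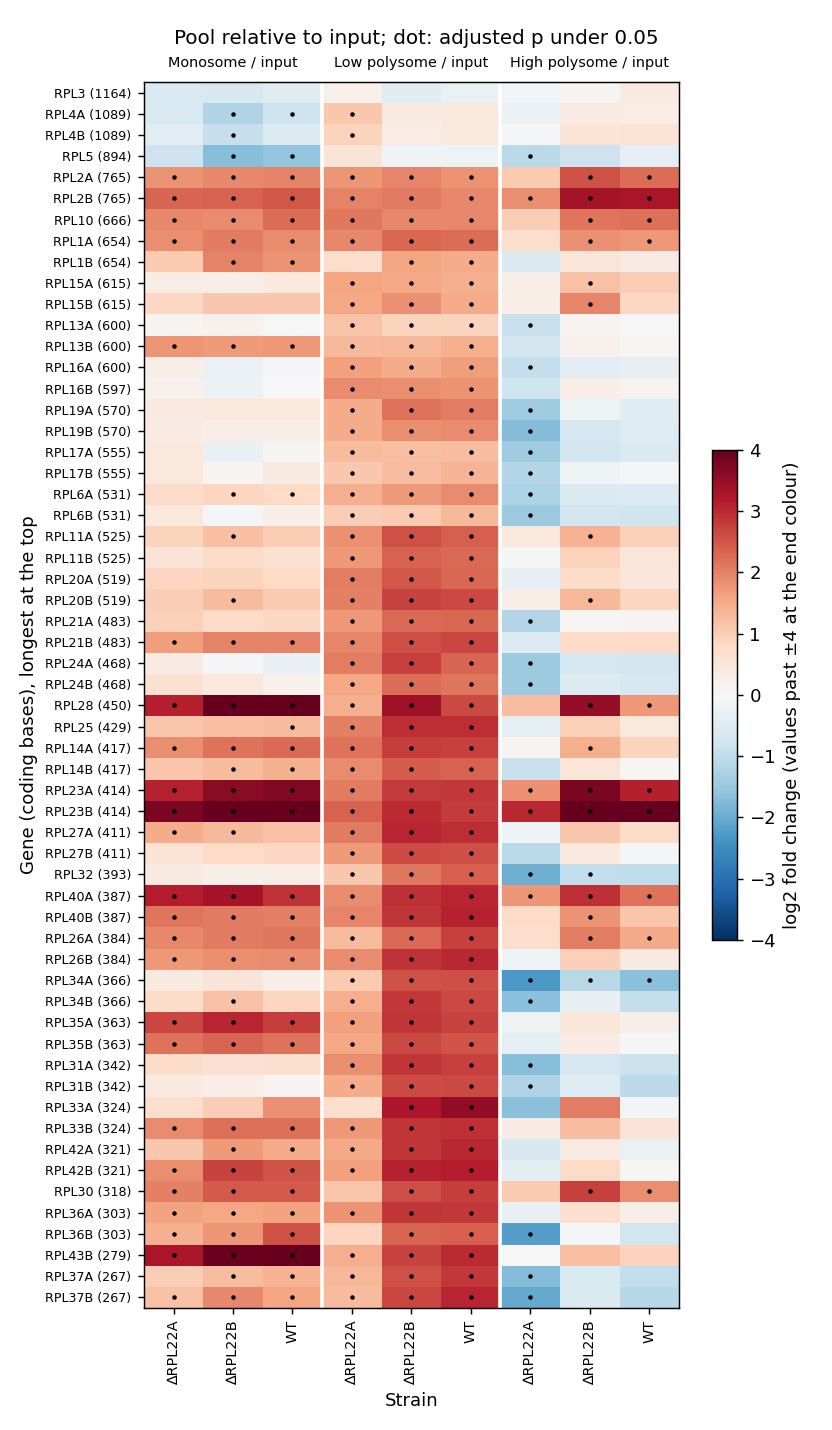
Log2 fold change of the monosome, low polysome and high polysome pools relative to input (colour, red higher and blue lower) in the 3 strains (columns) for the 58 tested genes (rows), ordered by coding length with the longest at the top. Black dots mark an edgeR adjusted p under 0.05; in low polysomes 52, 54 and 54 genes carry a dot and in high polysomes the columns hold both colours.

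In monosomes 24 members rose in ∆RPL22A, 32 in ∆RPL22B and 29 in WT (8.23%, 16.7% and 17.2% of all genes), and 0, 3 and 2 fell (5.56%, 12.8% and 13.6%). The medians were 0.99, 1.22 and 1.22, and 23 members rose in all 3 strains. Both copies for Rpl23, a protein of the face toward the small subunit, were among the highest. RPL23B had 2592 and 4105 CPM in monosomes of ∆RPL22A, 2332 and 3104 in ∆RPL22B and 2067 and 3695 in WT, against 301 and 189, 137 and 134 and 166 and 166 CPM in their inputs. All monosome libraries lay far above all input libraries, and the log2 fold changes were 3.78 ± 0.61, 4.32 ± 0.63 and 4.12 ± 0.62 (adjusted p = 0.000122, 1.16e-05 and 1.86e-05). RPL23A followed with 3.06 ± 0.51, 3.60 ± 0.52 and 3.71 ± 0.53. Without ∆RPL22A input replicate 2 the count for ∆RPL22A was 9, and without the 4 libraries it was 36.

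RPL28, the cycloheximide resistance gene, rose most in ∆RPL22B. It had 415 and 522 CPM in monosomes of ∆RPL22A, 538 and 656 in ∆RPL22B and 413 and 771 in WT, with log2 fold changes over input of 3.09 ± 0.53, 4.76 ± 0.58 and 4.02 ± 0.56. Its monosome libraries did not overlap its input libraries in any strain. RPL43B rose by 3.27 ± 0.52, 3.96 ± 0.54 and 4.10 ± 0.54. RPL40A, which encodes a fusion of ubiquitin with the ribosomal protein, rose by 3.13 ± 0.52, 3.33 ± 0.52 and 2.91 ± 0.51. RPL35A (YDL191W), next to the tunnel exit, rose by 2.66 ± 0.49, 3.03 ± 0.50 and 2.76 ± 0.50. Among the other single-copy genes, RPL10, one of the last proteins to join the subunit, rose by 1.93 ± 0.42, 1.90 ± 0.42 and 2.25 ± 0.43, and RPL30 by 2.01 ± 0.45, 2.44 ± 0.46 and 2.46 ± 0.46. The fallers were long genes. RPL5 had 307 and 273 CPM in monosomes of ∆RPL22A, 166 and 110.0 in ∆RPL22B and 166 and 141 in WT, against 574 and 448, 467 and 432 and 501 and 424 CPM in their inputs. It fell in ∆RPL22B (-1.70 ± 0.36, adjusted p = 0.000718) and WT (-1.59 ± 0.35, adjusted p = 0.00121), with -0.82 ± 0.35 and an adjusted p of 0.119 in ∆RPL22A. RPL4A fell in the same strains (-1.19 ± 0.32 and -0.83 ± 0.32) and RPL4B in ∆RPL22B (-0.93 ± 0.30), while RPL3 stood at -0.61 ± 0.31, -0.64 ± 0.31 and -0.48 ± 0.31 with no call.

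High polysomes split the set. Relative to input 4 members rose and 20 fell in ∆RPL22A, 16 rose and 2 fell in ∆RPL22B, and 10 rose and 1 fell in WT. Of all genes 9.93%, 10.5% and 7.01% rose and 6.91%, 5.95% and 3.25% fell in the same strains, and the members' medians were -0.42, 0.49 and 0.24. RPL23A, RPL23B, RPL2B (YIL018W) and RPL40A rose in all 3 strains. RPL23B had 2067 and 1896 CPM in high polysomes of ∆RPL22A, 4069.6 and 4495 in ∆RPL22B and 6534 and 2651 in WT, and its log2 fold changes over input were 3.02 ± 0.59, 4.98 ± 0.65 and 4.79 ± 0.64. They ranked 10, 4 and 9 from the highest among the 5380 genes in ∆RPL22A, ∆RPL22B and WT. RPL2B, whose protein sits beside the peptidyl transferase centre, had 1254 and 2279 CPM in ∆RPL22A, 3135 and 4070.5 in ∆RPL22B and 5476 and 2344 in WT, against 603 and 363, 379 and 336 and 421 and 398 CPM in input. Every high polysome library of RPL2B and RPL23B exceeded every input library, and the 2 WT high polysome libraries differed more than 2-fold in both genes. The log2 fold changes of RPL2B were 1.87 ± 0.51, 3.33 ± 0.54 and 3.26 ± 0.54, those of RPL23A 1.84 ± 0.49, 3.76 ± 0.53 and 3.10 ± 0.51, and those of RPL40A 1.75 ± 0.49, 2.92 ± 0.51 and 2.18 ± 0.50.

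RPL34A fell in all 3 strains. It had 28.3 and 39.8 CPM in high polysomes of ∆RPL22A, 49.4 and 43.8 in ∆RPL22B and 36.4 and 43.6 in WT, against 175 and 159, 98.7 and 103 and 117 and 139 CPM in input. The groups were far apart in each strain, with log2 fold changes of -2.30 ± 0.36, -1.12 ± 0.35 and -1.67 ± 0.36 (adjusted p = 0.000222, 0.0290 and 0.00285), although the same mRNA rose in low polysomes (1.06 ± 0.35, 2.55 ± 0.36 and 2.58 ± 0.36). RPL32 fell in ∆RPL22A (-1.95 ± 0.34, adjusted p = 0.000451) and ∆RPL22B (-0.98 ± 0.34, adjusted p = 0.0430), with -1.01 ± 0.34 and an adjusted p of 0.0508 in WT. RPL37B fell in ∆RPL22A (-2.03 ± 0.42, adjusted p = 0.00165), and stood at -0.59 ± 0.40 in ∆RPL22B and -1.13 ± 0.41 in WT without a call. RPL5 fell in ∆RPL22A (-1.09 ± 0.35, adjusted p = 0.0317).

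Some single-copy members were called higher in ∆RPL22B and WT, and not in ∆RPL22A. RPL10 had 0.999 ± 0.41, 2.15 ± 0.42 and 2.19 ± 0.42 in ∆RPL22A, ∆RPL22B and WT, and RPL30 1.05 ± 0.44, 2.73 ± 0.46 and 1.86 ± 0.45. RPL28 had 1.23 ± 0.50, 3.52 ± 0.55 and 1.75 ± 0.51. The strain difference of these ratios was itself tested. Against WT, the ratio in ∆RPL22A differed by -1.19 ± 0.58 for RPL10, -0.81 ± 0.62 for RPL30 and -0.52 ± 0.70 for RPL28 (edgeR adjusted p = 0.710, 0.774 and 0.871). Against ∆RPL22B it differed by -1.15 ± 0.58, -1.68 ± 0.62 and -2.29 ± 0.71 in the same order of genes (adjusted p = 0.410, 0.323 and 0.284). None of the 6 differences was called in this fit.

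The counts in high polysomes depended on single libraries. In ∆RPL22A 24 calls became 9 without input replicate 1, 10 without high polysome replicate 1 and 15 without high polysome replicate 2. With only the compared groups fitted, 32 members rose and 14 fell in ∆RPL22B and 11 rose and 7 fell in WT. In ∆RPL22B 18 became 11 and 9 without input replicates 1 and 2. In WT 11 became 3 without high polysome replicate 1, and 6 and 7 without input replicates 1 and 2. Without the 4 libraries close to another pool, 10 members rose and 22 fell in ∆RPL22A and 19 rose and 9 fell in WT.

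Set against monosomes, more members fell than rose in high polysomes of each strain. In ∆RPL22A 0 rose and 43 fell, in ∆RPL22B 2 rose and 14 fell, and in WT 4 rose and 24 fell. Of all genes 12.6%, 7.64% and 10.3% rose and 13.1%, 7.38% and 12% fell, and the members' medians were -1.67, -0.56 and -0.84. A total of 13 members fell in all 3 strains: RPL1B, RPL6A (YML073C), RPL13B (YMR142C), RPL32, both copies of RPL34, RPL35, RPL37 and RPL42, and RPL43B. RPL43B had 84.8 and 125, 129 and 113 and 141 and 77.2 CPM in high polysomes of ∆RPL22A, ∆RPL22B and WT, against 1324 and 733, 945 and 689.8 and 890.4 and 1074 CPM in monosomes, with no overlap in any strain. The log2 fold changes were -3.29 ± 0.52, -2.75 ± 0.51 and -3.17 ± 0.52, with those of RPL37B at -3.21 ± 0.43, -2.52 ± 0.42 and -2.72 ± 0.43. The risers were the 4 longest genes: RPL4A (1.51 ± 0.32 and 1.12 ± 0.32) and RPL4B (1.49 ± 0.30 and 1.14 ± 0.29) in ∆RPL22B and WT, and RPL3 (0.87 ± 0.31) and RPL5 (1.23 ± 0.35) in WT. The counts were 23 without high polysome replicate 1 in ∆RPL22A, 9 and 7 without high polysome replicates 1 and 2 in ∆RPL22B, and 12 without high polysome replicate 2 and 13 without monosome replicate 2 in WT. In WT 7 members rose and 28 fell without the 4 libraries. In ∆RPL22B 7 rose and 32 fell with only the compared groups fitted.

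Whether these distributions differed between strains was tested on the ratio of each pool to the input of the same strain (log2), as the difference of that ratio between strains. In each of the 9 tests 0 of 58 members were called by edgeR in the fit of all groups and 0 by DESeq2, where 0.00% of all genes were called in 8 and 0.0558% in the low polysome ratio of ∆RPL22A against WT. With only the compared groups fitted, 18 members were called in the high polysome ratio of ∆RPL22A against ∆RPL22B, all lower. The high polysome ratio was lower in ∆RPL22A for 58 of 58 members against WT (47.0% of all genes were below 0) and for 58 of 58 against ∆RPL22B (50.4%), with medians of -0.79 and -1.08. At an unadjusted p under 0.05 there were 8 members against WT (6.99% of all genes) and 25 against ∆RPL22B (12.3%). The low polysome ratio had medians of -0.62 and -0.69, with 13 members against WT (7.75%) and 12 against ∆RPL22B (5.30%) at that threshold. In the ratios of ∆RPL22B against WT, and in all 3 monosome ratios, 0 or 1 member passed it, with medians of 0.30 in high polysomes and -0.13 to -0.01 in the others. The lower ratios of ∆RPL22A were shared with other ribosomal protein genes. Against WT and ∆RPL22B, the small-subunit genes had medians of -0.61 and -0.96 in high polysomes. In low polysomes they had -0.85 and -0.75. The large-subunit protein genes outside the set had -0.51 and -0.87 in high polysomes, and -0.30 and -0.37 in low polysomes. All ratios of ∆RPL22A share its input libraries, in which the members' share was highest. Without the 4 libraries close to another pool, the high polysome ratio stayed lower in ∆RPL22A for 59 of 59 members against each strain, with medians of -0.65 and -0.83 and 0 and 4 calls. The median low polysome ratio of ∆RPL22A against WT was then -0.03. Without ∆RPL22B low polysome replicate 1 alone, 12 members were called lower in the low polysome ratio of ∆RPL22A against ∆RPL22B.

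Coding length was related to some of these changes and not to others. Across the 58 members Spearman's rho between coding length and the low polysome change was -0.04 in ∆RPL22A, -0.75 in ∆RPL22B and -0.85 in WT, and across 5300 genes it was -0.69, -0.77 and -0.73. Genes are not independent replicates, and the members share libraries and depth. The 2215 other tested genes in the same range of lengths had medians of 0.65, 0.69 and 0.79, against 1.56, 2.51 and 2.40 for the members. For low polysomes rho was -0.14 in ∆RPL22A and -0.66 in ∆RPL22B when the 4 libraries were left out. For monosomes over input rho across members was -0.43, -0.46 and -0.46, and for high polysomes over input it was 0.21, 0.0018 and 0.26. For high polysomes against monosomes rho across members was 0.65, 0.60 and 0.76, so that longer members had higher ratios. The 14 tested members without an intron had median monosome changes of 0.44, 0.33 and 0.36, against 1.15, 1.41 and 1.53 for the 44 with 1 intron. Members without an intron include the long genes RPL3, RPL4A, RPL4B and RPL5, so these medians do not separate length from intron. Members of like length with and without an intron were not compared.

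**Figure D4:**
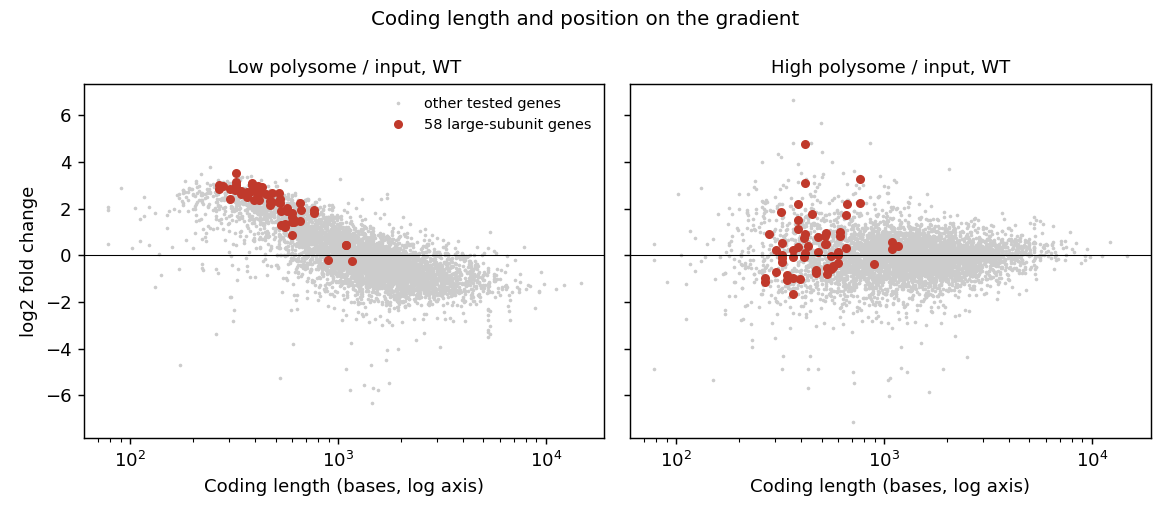
Log2 fold change over input (vertical axis) against coding length in bases (horizontal log axis) in WT low polysomes (left) and WT high polysomes (right), with the 58 members in red and the other tested genes in grey. On the left the members fall with length (rho = -0.85, n = 58) and most sit above other genes of like length, and on the right they scatter on both sides of 0.

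For the 26 pairs the share of the A copy was taken from the pair's counts in each library. In WT input it ran between 0.640% for RPL43 and 97.0% for RPL36. RPL33 (1.72%), RPL13 (32.3%), RPL16 (32.7%) and RPL42 (33.5%) were the next lowest, and RPL15 (93.1%), RPL14 (73.0%), RPL31 (71.8%) and RPL4 (71.0%) the next highest. In RPL43, RPL33 and RPL36 the row of 1 copy is near empty, and a low mRNA level was not told apart from read counting there. The shares compare counts of 2 rows in 1 library, so that the depth and scaling of libraries do not enter. With 2 libraries against 2 the smallest exact permutation p is 0.333, so that no test of a share could pass, and the 4 pools of a replicate number may come from 1 culture.

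In ∆RPL22A the A share of 4 pairs lay above WT in all 4 pools with no overlap of libraries, and the same 4 lay above ∆RPL22B in all 4 pools. Over all pairs and pools (104 combinations) the libraries did not overlap in 40.4% between ∆RPL22A and WT, in 42.3% between ∆RPL22A and ∆RPL22B and in 26.0% between ∆RPL22B and WT. If strain made no difference, 2 libraries against 2 would not overlap with a probability of 0.333, so the 26.0% is no excess. These percentages are of the same 26 pairs and not of other genes. RPL1, the protein of the mobile L1 stalk near the tRNA exit site, stood out in size. Its A share in input was 58.4% ± 0.398 in ∆RPL22A, 46.5% ± 0.729 in ∆RPL22B and 43.6% ± 2.03 in WT (SD, n = 2 each). In monosomes it was 71.3% ± 0.944, 48.0% ± 0.693 and 45.9% ± 5.05, and in low polysomes 76.3% ± 0.481, 56.3% ± 6.92 and 56.5% ± 1.89 in the same strains. In high polysomes it was 77.1% ± 0.365, 68.5% ± 0.507 and 65.5% ± 7.91. The differences of ∆RPL22A from WT were 11.6 to 25.4 percentage points, and those from ∆RPL22B 8.57 to 23.3. These rest on the 4 bases printed above and on how reads over the rest of the gene were shared out, which was not tested.

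Neither copy of RPL1 was called between ∆RPL22A and WT in monosomes. RPL1A had 756 and 609.8 CPM in ∆RPL22A, 608 and 475 in ∆RPL22B and 499.7 and 465 in WT, and RPL1B had 315 and 238, 673 and 506 and 682 and 475 CPM. Both ∆RPL22A libraries were above all others for RPL1A, though the lower one barely, and below all others for RPL1B. The log2 fold changes of ∆RPL22A over WT, 0.50 ± 0.42 for RPL1A and -1.07 ± 0.36 for RPL1B, were not called (edgeR adjusted p = 0.554 and 0.0861).

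The other 3 pairs were RPL4, RPL21 and RPL17. The A share of RPL4 in input was 77.8% ± 1.10 in ∆RPL22A, 69.7% ± 1.85 in ∆RPL22B and 71.0% ± 1.29 in WT, and the differences of ∆RPL22A from WT over the 4 pools were 6.76 to 8.94 points. RPL21 had 61.1% ± 0.984, 54.3% ± 0.120 and 54.5% ± 0.479 in input, with differences from WT of 6.52 to 13.1 points. RPL17 had 66.6%, 63.8% and 64.04% in input, with differences from WT of 2.61 to 8.07 points. RPL4 and RPL17 both encode proteins of the tunnel wall. RPL26, also near the tunnel, went the other way, its A share being lower in ∆RPL22A than in each other strain in 3 of 4 pools, with differences from WT of -7.26 to -3.65 points over the 4 pools. In ∆RPL22B the A shares of RPL37 and RPL31 lay below WT without overlap in 3 of 4 pools each. They were picked from a comparison in which gaps between libraries were not in excess, so they are a description only. The differences over the 4 pools were -10.6 to -1.55 points for RPL37, the widest in monosomes, and -5.58 to 0.70 points for RPL31. The largest input differences of ∆RPL22B from WT were 3.33 points for RPL34, -2.99 for RPL37, 2.93 for RPL1, and -2.62 for each of RPL19 and RPL2.

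**Figure D5:**
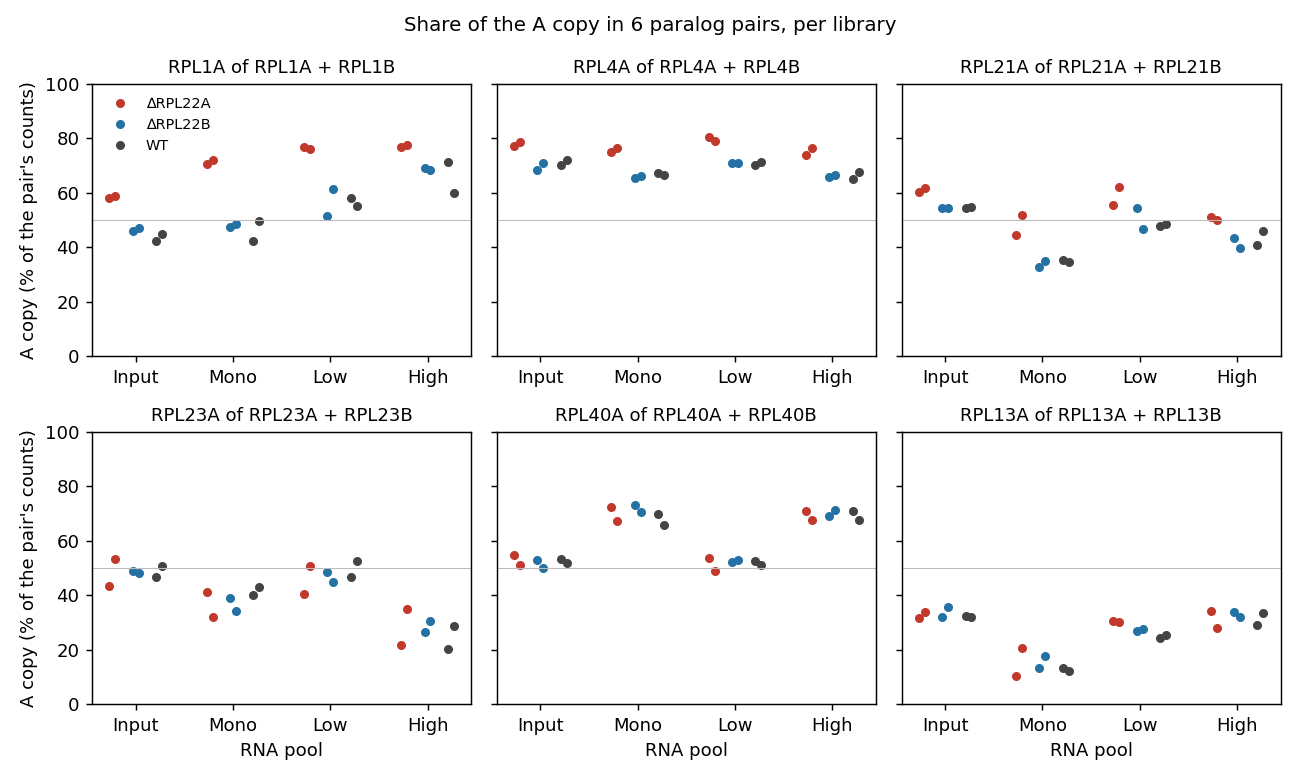
Share of the A copy in the pair's counts (vertical axis, percent) in every library (points), by RNA pool (horizontal axis) and strain (colours), for 6 pairs. RPL1A, RPL4A and RPL21A take a larger share in ∆RPL22A than in the other strains in every pool, RPL23A a smaller one in high polysomes than in input, RPL40A a larger one in monosomes and high polysomes, and RPL13A a smaller one in monosomes.

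Between pools most A shares lay apart from input. Over 26 pairs and 3 strains (78 combinations) the libraries did not overlap with input in 79.5% for monosomes, 47.4% for low polysomes and 74.4% for high polysomes. In all 3 strains 7 pairs were higher and 10 lower in monosomes, 4 higher and 1 lower in low polysomes, and 7 higher and 7 lower in high polysomes, and some of them are described here. The A share of RPL40 was higher in monosomes than in input by 15.1 to 20.3 points and in high polysomes by 16.5 to 18.5 points, whereas in low polysomes (51.1%, 52.5% and 51.8% in ∆RPL22A, ∆RPL22B and WT) it was close to input (52.9%, 51.5% and 52.6%). Monosome and high polysome libraries also differed from input and low polysome libraries in the share of YLR154W-E. Differences of A shares between pools therefore cannot be told apart from differences in library make-up, which was not tested. The A share of RPL23 was lower in high polysomes than in input, with differences of -24.4 to -19.9 points, standing at 28.4% ± 9.36, 28.6% ± 2.94 and 24.4% ± 5.94 in ∆RPL22A, ∆RPL22B and WT. RPL13 (-19.6 to -17.2 points), RPL21 (-20.6 to -12.9 points) and RPL42 (-13.8 to -10.1 points) were lower in A share in monosomes, and RPL2 (-15.4 to -12.6 points) and RPL34 (-13.1 to -9.85 points) in high polysomes. RPL1 (18.7 to 22.03 points), RPL26 (14.9 to 18.6 points) and RPL27 (10.7 to 13.2 points) were higher in A share in high polysomes, and RPL14 in monosomes (8.84 to 10.2 points) and high polysomes (9.51 to 11.4 points). When counts were summed per protein, RPL17A and RPL4A were no longer called between strains as families (0 calls each in monosomes and low polysomes of ∆RPL22A against ∆RPL22B).

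The dedicated chaperones of these proteins and the regulators of their genes were listed as the surrounding pathway. Of the 5 chaperones (RRB1 for Rpl3, SYO1 for Rpl5 and Rpl11, ACL4 for Rpl4, SQT1 for Rpl10 and BCP1 for Rpl23) 0 were called in input of ∆RPL22A against WT (4.65% of all genes), with a median of 0.60. SYO1 rose in monosomes (1.92 ± 0.38, edgeR adjusted p = 0.00244) and high polysomes (1.34 ± 0.35, adjusted p = 0.0277) of ∆RPL22A against WT. BCP1 rose in low polysomes (1.27 ± 0.30, adjusted p = 0.00898) and high polysomes (1.23 ± 0.32, adjusted p = 0.0288), and SQT1 in low polysomes (1.12 ± 0.25, adjusted p = 0.00616). The same 3 genes were called higher in ∆RPL22A than in ∆RPL22B, BCP1 and SQT1 in low polysomes (1.15 ± 0.28 and 1.34 ± 0.25) and SYO1 in high polysomes (1.19 ± 0.34). Of all genes 5.48%, 5.39% and 3.29% were called in monosomes, low and high polysomes of ∆RPL22A against WT. Against ∆RPL22B 7.19% and 5.37% were called in low and high polysomes. In ∆RPL22B against WT 0 of the 5 were called in any pool, but only 0.316% to 0.353% of all genes were, so no contrast is read from it. In low polysomes over input 0 of the 5 rose in any strain (17.2% to 20.8% of all genes). Of the 6 regulators (RAP1, FHL1, IFH1, SFP1, HMO1 and CRF1) 0 were called in any of the 12 strain comparisons, which called 0.316% to 7.19% of all genes. In monosomes over input SFP1 fell in ∆RPL22B (-1.86) and WT (-1.24), RAP1 in ∆RPL22B (-0.95) and FHL1 in WT (-1.19). In low polysomes over input SFP1 fell in ∆RPL22A (-1.15) and RAP1 in ∆RPL22B (-1.29). In high polysomes IFH1 rose over input in ∆RPL22A (1.36) and over monosomes in ∆RPL22A (1.43) and WT (1.23), and RAP1 rose over monosomes in ∆RPL22A (0.88). Of all genes 12.8% and 13.6% fell in monosomes over input in ∆RPL22B and WT, and 8.42% and 12.4% in low polysomes in ∆RPL22A and ∆RPL22B. In ∆RPL22A 9.93% rose in high polysomes over input and 12.6% over monosomes, and in WT 10.3% rose over monosomes. The lists hold few genes, and nothing about their relation to the ribosomal protein mRNAs was tested.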

How the data were processed

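The values used are the read counts per gene that the authors deposited for 24 libraries, whole numbers with no normalization. Tools listed in the submitters' processing notes, without role or order, are cutadapt 1.4, SAMtools 0.1.19 and RSEM 1.2.18, with sacCer3 as the build; the treatment of reads that match several genes is not stated there. Lanes (2) were merged per the series design. Of 6369 row names 5908 matched the RefSeq R64 annotation, and 0 columns were left unused. The 2 libraries of each group differed beyond sampling noise (chi-square per degree of freedom 1.83 to 34.3), so each counted as 1 replicate.

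In edgeR 4.0.16 (R 4.3.3), filterByExpr (smallest count 10, smallest total 15) left 5380 genes. After TMM scaling, all libraries entered a single quasi-likelihood fit of the 12 strain and pool groups (12 residual degrees of freedom, prior 16.1), and p-values were adjusted over all tested genes after Benjamini and Hochberg, with calls at 0.05. The spread behind them is pooled over all groups. Values after ± are standard errors for log2 fold changes and SDs elsewhere. The test was tried on simulated data with 200 changed genes, where each gene had the same relative level in all libraries except in a single changed group. The pools of these data differ far more, so that trial does not show how the test performs on them. The members, the lists and the rules for the genes named (calls between strains, the 4 largest rises and falls per pool, the 5 highest and lowest levels and A shares, single-copy genes and the 3 largest input differences) were chosen with earlier results of these data known. Genes named beyond these rules, such as other members that rose in all 3 strains, were chosen after their values were seen. Alternatives included DESeq2 1.42.0.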

Additional observations from a re-analysis of the deposited data

How the results depend on the processing

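The numbers of called members under alternatives, where they moved by more than 1.5 times, were as follows. The shares of all genes called under them are not given, so whether other genes moved alike is not shown. With relative log expression scaling ∆RPL22A against ∆RPL22B in input had 2, and with TMM factors computed without ribosomal protein genes ∆RPL22A against WT in low polysomes had 1. With the ribosomal DNA rows left out, ∆RPL22A input had 1 against WT and 2 against ∆RPL22B, and the members' share of counts had a median of 2.71% over the 24 libraries with those rows kept, against 17.2% without them. With no low-count filter ∆RPL22A had 2 against WT and 7 against ∆RPL22B in input, 2 against ∆RPL22B in monosomes, and 1 against WT and 2 against ∆RPL22B in high polysomes, and 1 each in the low polysome ratio against WT and the high polysome ratio against ∆RPL22B. DESeq2 called 1, 1, 4 and 4 against WT and 8, 7, 3 and 2 against ∆RPL22B in input, monosomes, low and high polysomes of ∆RPL22A. With only the compared groups fitted, ∆RPL22A had 6, 3 and 1 against WT in input, monosomes and low polysomes, and 24, 15, 0 and 14 against ∆RPL22B in the 4 pools. That fit gave 4 for ∆RPL22B against WT in input, 46 and 39 for high polysomes over input and over monosomes in ∆RPL22B, 18 for high polysomes over input in WT, and 18 for the high polysome ratio of ∆RPL22A against ∆RPL22B. Without the 4 libraries close to another pool ∆RPL22A had 2, 8 and 12 against WT in input, low and high polysomes and 7 and 8 against ∆RPL22B in input and low polysomes. WT then had 28 for high polysomes over input. The ratios of ∆RPL22A then had 2 in low polysomes against WT, and 1, 4 and 4 in monosomes, low and high polysomes against ∆RPL22B. Alternatives added after seeing the data were sums per family (0 calls in monosomes and low polysomes of ∆RPL22A against ∆RPL22B) and leaving out the rows RPL33A and RPL36B, which moved no count that far.

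Leaving out 1 library gave, over input, 9 to 21 calls in monosomes, 1 to 51 in low polysomes and 9 to 21 in high polysomes of ∆RPL22A. The ranges were 24 to 27, 47 to 53 and 9 to 12 in ∆RPL22B, and 24 to 29, 52 to 53 and 3 to 11 in WT. For high polysomes over monosomes they were 23 to 35 in ∆RPL22A, 7 to 13 in ∆RPL22B and 12 to 22 in WT. Between strains they were 0 to 1 for ∆RPL22A against ∆RPL22B in input, 0 to 0 in monosomes and 0 to 8 in low polysomes, 0 to 4 and 0 to 9 in low polysomes of ∆RPL22A and ∆RPL22B against WT, and 0 to 12 for the low polysome ratio of ∆RPL22A against ∆RPL22B. All other strain comparisons and ratios stayed at 0. The lone library left in a group was assumed to vary like the other groups.

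Same-numbered libraries did not deviate together throughout: the correlation of their deviations was above 0.1 in 17 of 66 pairs of groups (-0.58 to 0.40). Within ∆RPL22A it was 0.33 between low polysomes and input and -0.34 between high polysomes and input. The numbers were not taken to pair samples, and whether pools of a number share a culture was not tested. With the replicate block 1 member was called in ∆RPL22A against ∆RPL22B in input, and no other count moved by more than 1.5 times. Alternative values were taken for 70 results of named members, the calls between strains and the largest rises and falls per pool. Of 871 such values 799 kept direction and call, 72 kept the direction only, 63 of these with 1 library left out, and 0 turned direction. The named input differences without a call were not among the 70. These results were picked as calls or large changes, so a kept direction says little about other members. The cause of these shifts was not tested. At 314212 counts outside the ribosomal DNA in the shallowest library, rows such as RPL33A and RPL36B give imprecise values.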
